A study of Mus musculus with 106 samples.

Results

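The 10 genes described here move calcium between the cytosol and the sarcoplasmic or endoplasmic reticulum, the internal calcium store of the cell. They were chosen by symbol, as the pumps, release channels and storage proteins of this store with the small peptides that hold the pumps back, and all 10 are among the 21647 to 23420 genes of each of the 4 deposited count tables. The SERCA pumps (Atp2a1, Atp2a2, Atp2a3) use ATP to return calcium to the store, the ryanodine receptors (Ryr1, Ryr2, Ryr3) let it out, calsequestrins (Casq1, Casq2) bind it inside the store, and sarcolipin (Sln) and phospholamban (Pln) are membrane peptides that inhibit the pumps. Fast skeletal muscle uses mainly Atp2a1, Ryr1 and Casq1, heart and slow muscle use Atp2a2, Ryr2 or Ryr1, Casq2, Pln and, in part, Sln, and most other cells rely on Atp2a2 as a housekeeping pump. In muscle, and in some fat cells, pumping without net calcium transport is known as a source of heat that does not need UCP1, the uncoupling protein of brown fat.

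RNA was sequenced from 11 tissues of wild-type male C57BL/6J mice, with no transgene or mutant allele in any group. Mice of the cold experiment spent 2 weeks at 10 °C after 5 days each at 18 °C and 14 °C and were 11 weeks old, or 12 weeks for quadriceps, by the labels, and their controls stayed at 22 °C. Mice of the warm experiment spent 4 weeks at 34 °C from 8 weeks of age and were 12 weeks old, with 22 °C controls of the same age. The 106 libraries fall into 31 groups, with 38 libraries at 10 °C, 53 at 22 °C and 15 at 34 °C. A library was a pool of 2 mice in most tissues, and a single mouse in bone marrow (6 per group), spinal cord (5 per group) and part of the warm brown fat. Interscapular brown fat (iBAT), inguinal subcutaneous fat (ingSAT), perigonadal visceral fat (pgVAT), liver, ileum, spleen, brain and hypothalamus of the cold experiment had 3 libraries per group and share 1 table. Quadriceps and the warm iBAT, liver, ileum and brain share another, with 3 libraries per group except for 6 quadriceps libraries at 22 °C, which serve both the 10 °C and the 34 °C comparison, since the labels do not divide them between the experiments. Warm ingSAT and pgVAT were not analysed here. Library totals ran from 4262403 to 25964912 counts in the table of 8 tissues, from 29545458 to 62880248 in the table of the warm tissues, and from 15591374 to 29029283 in bone marrow and spinal cord.

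Each tissue showed its own markers: the summed level of the list that defines it was higher in its lowest library than in any library of the tissues that should lack it. Quadriceps, for example, had at least 195229 CPM (counts scaled to the library total) of 12 fast skeletal muscle genes, and the highest other library, an iBAT one, had 11562. Levels of fast muscle transcripts are therefore given beside the results that move with them. A further 7 libraries stood apart from their groups: warm iBAT at 22 °C replicate 2 (5168 CPM of fast muscle genes, against 95.0 and 101 in the other 2), ingSAT at 10 °C replicate 2 (91.5 CPM, against 1428 and 2127), warm brain at 22 °C replicate 1, warm liver at 34 °C replicate 1, liver of the cold experiment at 22 °C replicate 3, spinal cord at 22 °C replicate 6, and brain of the cold experiment at 22 °C replicate 2, which held 48111 CPM of hepatocyte genes against 1176 and 788. Results that rest on these 7 are given with and without them. Libraries with muscle transcripts outside these 7 are described with their results. Among them are pgVAT at 22 °C replicate 3 and bone marrow at 10 °C replicate 4, which stayed in the fits without the 7.

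The promoters of members that moved together in iBAT are shown first, with that of Casq2, the calsequestrin that was higher in iBAT at 34 °C. RefSeq windows on GRCm38.p6, taken from 250 to 51 bases before the start of transcription, were found for 7 of the 10 genes. Capitals mark matches on either strand to CAGCTG or CACCTG (which reads CAGGTG on the other strand), E-boxes of the kind bound by myogenic factors, or to the MEF2 consensus. The sequences read 5′ to 3′ on the strand of the gene.

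Atp2a1, chr7:126463124-126463323, minus strand: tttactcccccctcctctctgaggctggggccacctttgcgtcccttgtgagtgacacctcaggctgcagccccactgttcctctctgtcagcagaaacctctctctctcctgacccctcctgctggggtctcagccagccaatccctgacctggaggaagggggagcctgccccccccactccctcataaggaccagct
Ryr1, chr7:29125202-29125401, minus strand: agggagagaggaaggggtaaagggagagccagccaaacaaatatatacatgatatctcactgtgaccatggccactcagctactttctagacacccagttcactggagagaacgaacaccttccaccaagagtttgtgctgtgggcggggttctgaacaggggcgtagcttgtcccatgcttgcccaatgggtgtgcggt
Casq1, chr1:172219946-172220145, minus strand: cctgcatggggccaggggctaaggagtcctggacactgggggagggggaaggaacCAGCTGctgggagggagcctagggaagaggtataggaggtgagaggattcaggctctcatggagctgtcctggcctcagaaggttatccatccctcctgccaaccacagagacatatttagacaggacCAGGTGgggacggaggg
Casq2, chr3:102086165-102086364, plus strand: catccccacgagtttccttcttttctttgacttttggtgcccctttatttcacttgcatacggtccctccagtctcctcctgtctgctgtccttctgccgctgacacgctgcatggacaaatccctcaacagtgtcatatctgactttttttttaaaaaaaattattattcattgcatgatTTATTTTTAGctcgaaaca

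Casq1 held 1 CAGCTG and 1 CACCTG match, Casq2 held 1 MEF2 match, and Atp2a1 and Ryr1 held none of the 3. Of the other windows, that of Ryr2 held 1 CACCTG match, and those of Atp2a3 and Pln held none. Among 32514 windows of this length, 10.3% held CAGCTG, 14.5% CACCTG and 2.39% the MEF2 consensus. A match is a description of these letters, and no factor was measured here.

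At 22 °C the family members divided the tissues among themselves. Levels of different genes are compared per kilobase of annotated exon, as shares of the family total within a library. In quadriceps, Atp2a1 made up 99.7% of SERCA transcripts, Casq1 99.5% of calsequestrin transcripts, and Ryr1 99.98% of ryanodine receptor transcripts. Atp2a2 was 93.5% of SERCA transcripts in brain of the cold experiment, 97.3% in hypothalamus and 96.7% in spinal cord. Atp2a3, known as the pump of blood cells and epithelia, took the largest share in spleen (69.2%) and bone marrow (77.4%), and ileum of the cold experiment was divided between Atp2a2 (56.2%) and Atp2a3 (43.6%). In ileum of the warm experiment, in another table, these shares were 49.8% and 50.1% at 22 °C, with overlapping ranges of 46.6% to 54.4% and 45.6% to 53.4%. In nervous tissue the receptors were Ryr2 and Ryr3: their shares were 75.7% and 19.5% in brain, 56.4% and 41.3% in hypothalamus, and 62.9% and 35.9% in spinal cord. Casq2, the cardiac and slow muscle calsequestrin, made up 95.3% of its family in ileum.

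**Figure D1:**
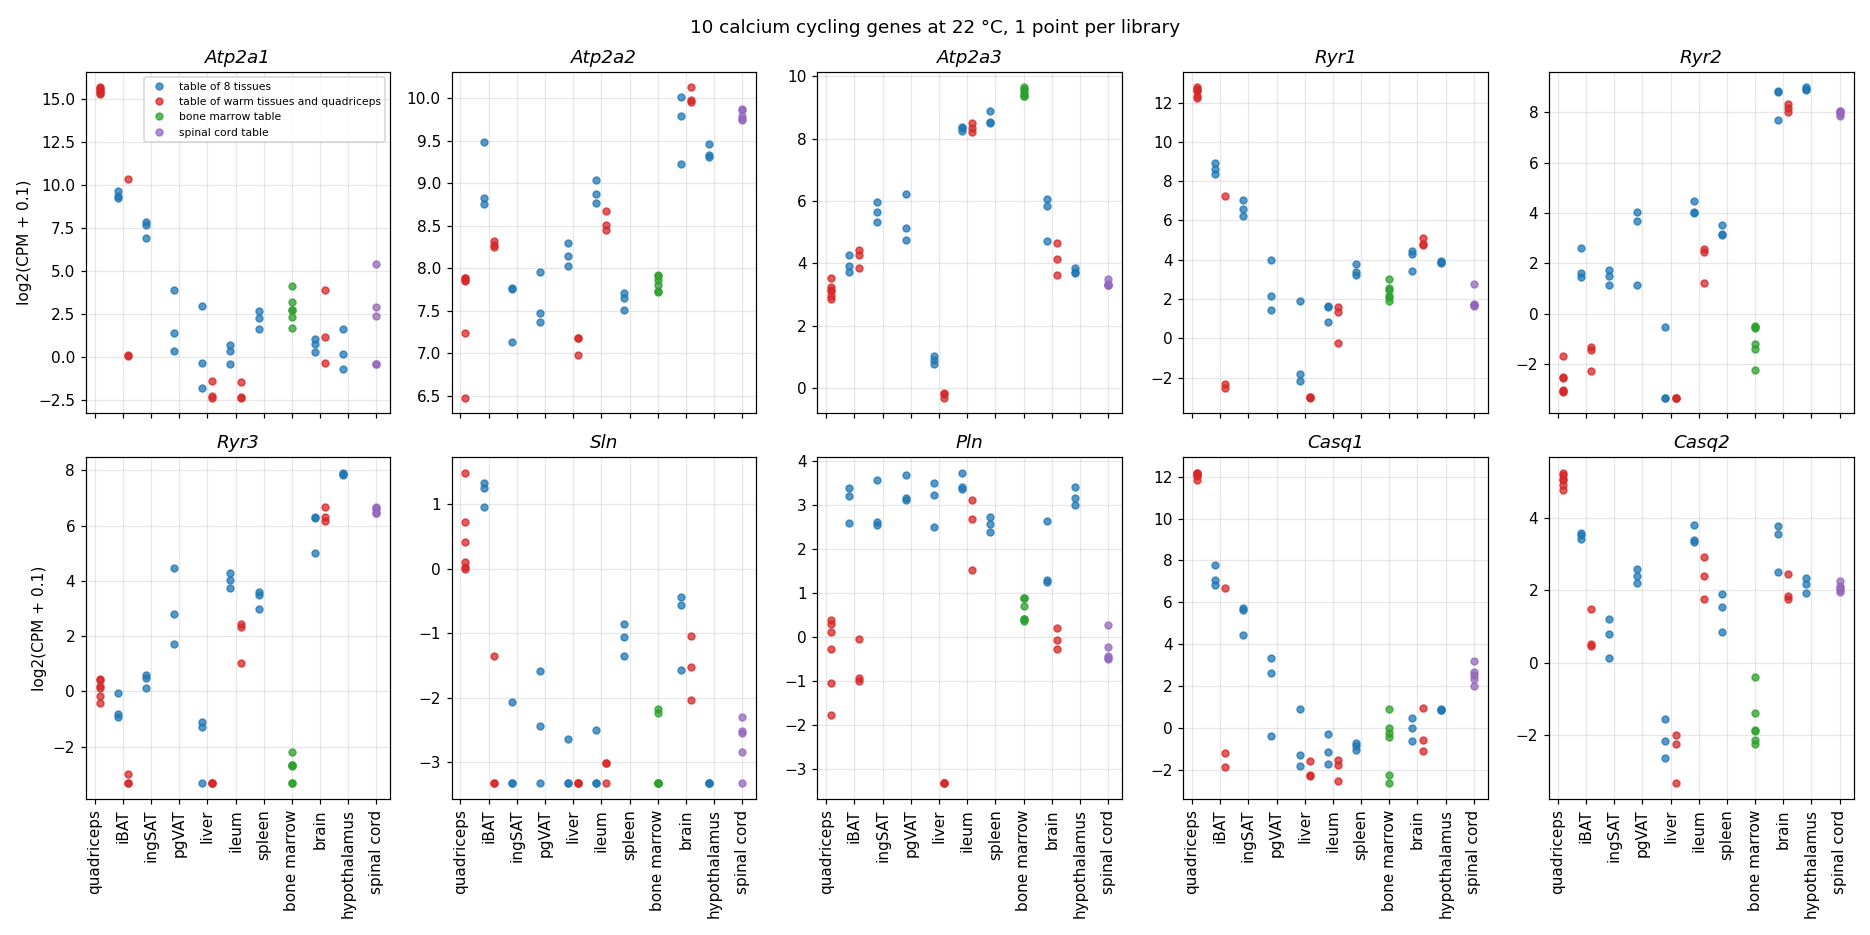
Level of each of the 10 genes at 22 °C by tissue, as log2(CPM + 0.1), with 1 point per library and colours for the 4 count tables. Atp2a1, Ryr1 and Casq1 are highest in quadriceps, Ryr2 and Ryr3 in hypothalamus, Atp2a3 in bone marrow and spleen, and 1 of 3 warm iBAT libraries (red) stands far above the other 2 for Atp2a1, Ryr1 and Casq1.

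Among the pumps, Atp2a1 (GRCm38 chr7:126445858-126463108, minus strand) averaged 45802 ± 4814 CPM in quadriceps (SD, n = 6) and 688 ± 113 in iBAT of the cold experiment (n = 3), while spleen libraries at 22 °C ran from 3.005 to 6.22. Atp2a2 (chr5:122453513-122502225, minus strand) was present in every tissue of the table of 8, with means of 840 CPM in brain, 661 in hypothalamus, 532 in iBAT, 477 in ileum, 285 in liver, 197 in spleen, 197 in pgVAT and 191 in ingSAT. Atp2a3 (chr11:72961169-72993044, plus strand) stood at 404 CPM in spleen and 320.1 in ileum, then 50.5 in ingSAT, 49.9 in brain, 45.3 in pgVAT, 15.9 in iBAT, 13.5 in hypothalamus and 1.79 in liver. Its ingSAT, brain and pgVAT libraries overlapped, so that their order is not set by these data. The ingSAT libraries held 39.7, 49.7 and 62.0 CPM of Atp2a3 and, in the same order, 22.4, 30.5 and 57.4 of 4 T cell genes. The part of T cells in this level was not tested.

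Ryr1 (chr7:29003344-29125179, minus strand), the release channel of skeletal muscle, was at 5986 CPM in quadriceps and 403 ± 80.4 in iBAT of the cold experiment. Ryr2 (chr13:11553102-12106945, minus strand), the cardiac and neuronal channel, reached 504, 464 and 484 CPM in the hypothalamus libraries and 457, 206 and 441 in brain, where the low value belongs to the library with hepatocyte transcripts. Ryr3 (chr2:112631355-113217096, minus strand) was at 240.2, 225 and 235 CPM in hypothalamus, above the 78.3, 32.5 and 79.1 of brain. Ryr2 was at 17.9 CPM in ileum and 0.202 in liver.

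Casq1 (chr1:172209894-172219868, minus strand) averaged 4351 CPM in quadriceps. Casq2 (chr3:102086415-102146514, plus strand) was highest in quadriceps at 32.7 CPM, followed by ileum (11.3), iBAT (11.3) and brain (10.2) in the table of 8 tissues, whose ranges overlapped. Pln (chr10:53337667-53345987, plus strand) lay between 3.60 CPM in brain and 11.3 in ileum there, with every pair of neighbours in that order overlapping. Sln (chr9:53850164-53854560, plus strand) was low everywhere: quadriceps libraries held 0.893 to 2.70 CPM, iBAT of the cold experiment 1.85 to 2.41, and it had no count in hypothalamus at 22 °C. It had at most 215 counts in any quadriceps library at any temperature.

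Levels of some members depended on the table. Pln was at 5.62 to 11.2 CPM in liver of the table of 8 tissues and at 0 in every liver library of the warm table, and Ryr2 in iBAT at 22 °C was at 2.66 to 6.03 CPM in the former against at most 0.301 in the latter. Casq2 in iBAT at 22 °C was at 10.6 to 11.8 CPM in the table of 8 tissues and at 1.29 to 2.67 in the other. Kit, sequencer and supplier of the mice differ between these tables for iBAT and liver, and cannot be told apart. In the annotation Pln shares 2105 exon bases with Gm47644 on the opposite strand, Ryr1 935 with Gm26604, Ryr3 916 with Aven, Atp2a1 807 with Rabep2 and Casq1 156 with Gm17224. Whether counting used the strand is not given in the sources used here, so reads of these pairs may not be separated.

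The genes whose 22 °C pattern over 11 tissues was most like that of a member, by Pearson correlation of log2 mean levels across 15989 genes, were mostly muscle genes for the fast muscle trio. They were Mybpc2, Tnnt3 and Tnni2 for Atp2a1 (r of 0.994, 0.993 and 0.990), Cmya5 and Myo18b for Ryr1 (0.972 and 0.969), and Actn3 and Mylk4 for Casq1 (0.987 for both). Ryr2 was followed most closely by Id4 (0.981), Ryr3 by Nhs (0.974), Atp2a3 by Ints12 (0.958) and Prkcd (0.955), Atp2a2 by Acsl3 (0.924), Casq2 by Srp54a (0.939), Pln by 1700034I23Rik (0.979) and Sln by Nr4a1 (0.910). The tissues come from 4 tables, which these correlations share.

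For each comparison a gene was called changed at an unadjusted p of at most 0.05 with a fold above 1.5, the limits of the study. Fold changes below are log2 values with their standard error from edgeR's quasi-likelihood test with TMM scaling, p adjusted by Benjamini-Hochberg over all genes tested, and levels are CPM of the library total. At 10 °C, 86 of 110 pairs of gene and tissue could be tested. Of these, 6 were called, 1 higher and 5 lower, all of them in iBAT and pgVAT, beside 4.94% of the tested pairs of all genes. Of the 6, 2 also had an adjusted p under 0.05. At 34 °C, 29 of 50 pairs were tested and 4 were called, 2 in each direction, beside 5.32% of the tested pairs of all genes. Of the 4, 2 also passed after adjustment.

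**Figure D2:**
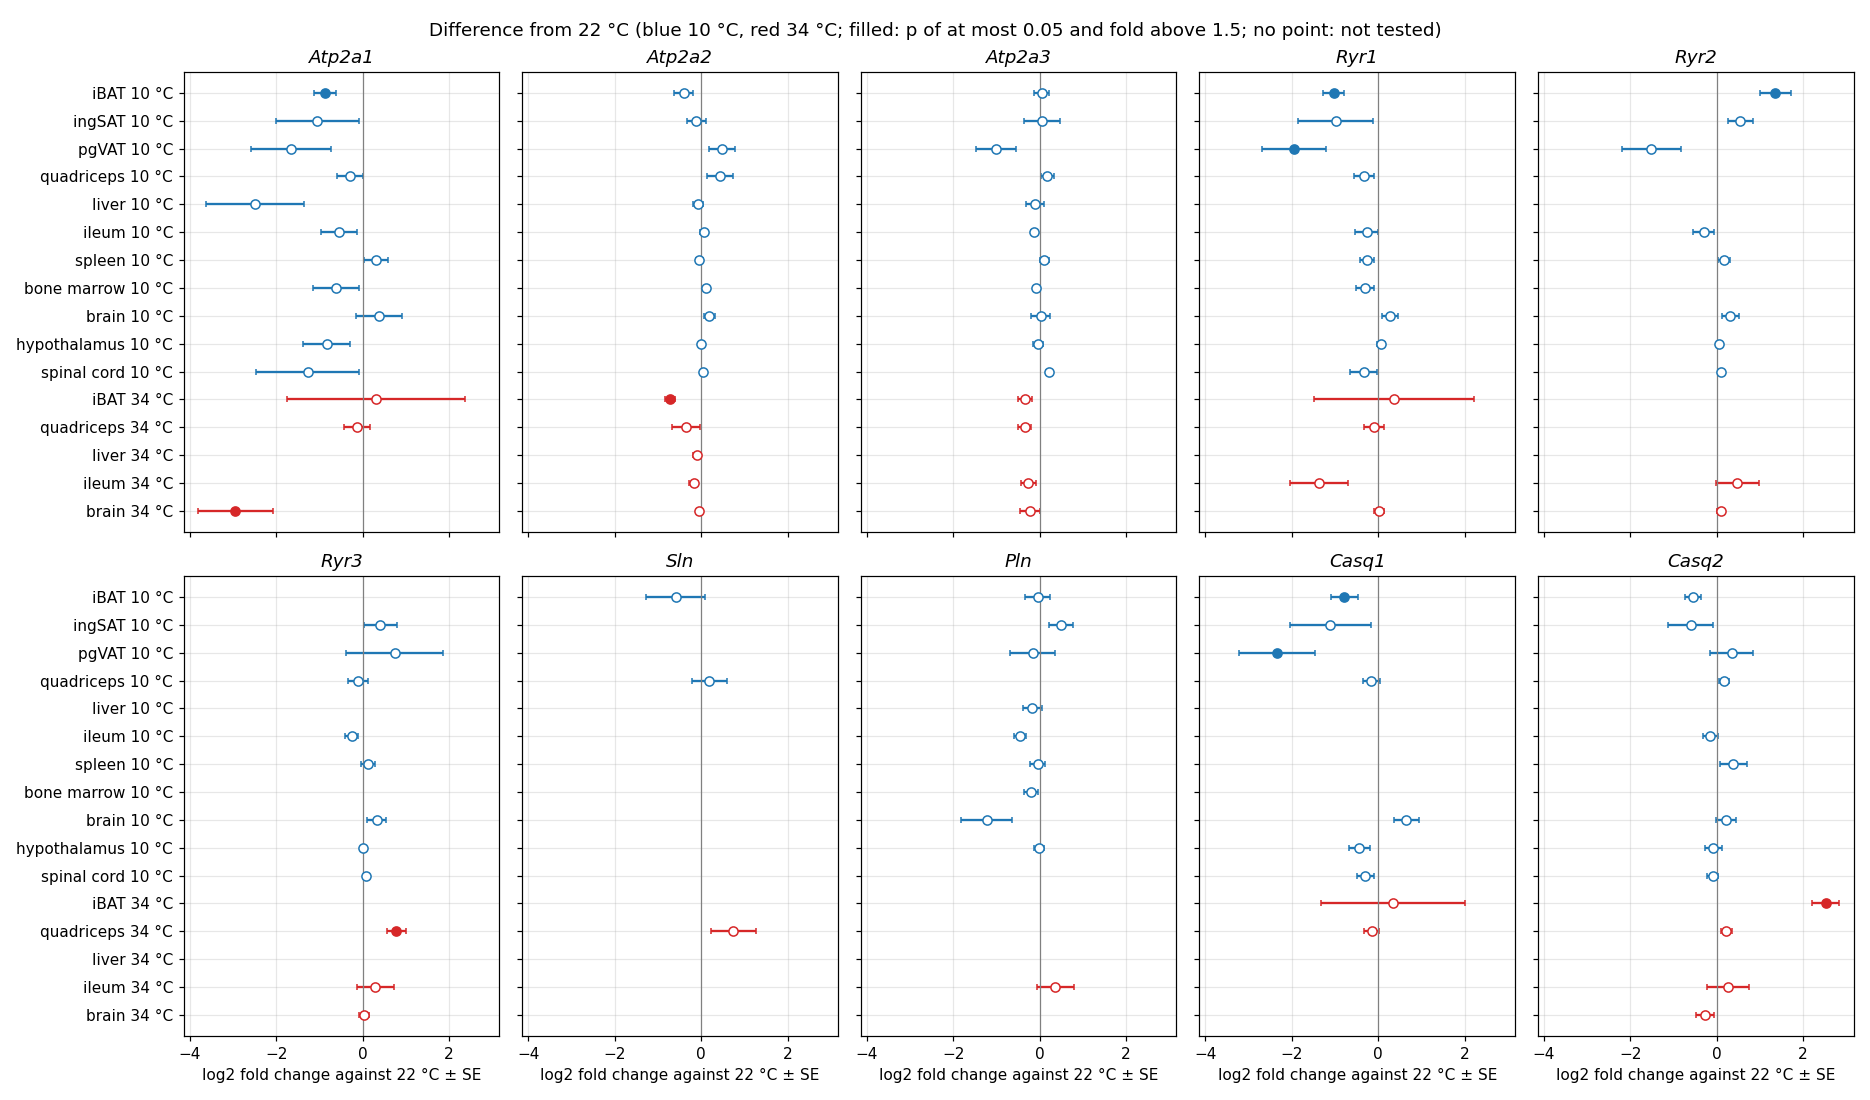
Log2 fold change against 22 °C with its standard error for each gene and comparison, at 10 °C in blue and at 34 °C in red, where filled points passed the limits of the call. Filled blue points lie below 0 for Atp2a1, Ryr1 and Casq1 in iBAT and for Ryr1 and Casq1 in pgVAT, and above 0 for Ryr2 in iBAT.

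In iBAT at 10 °C the fast muscle forms of the pump, the channel and the calsequestrin were lower, and Ryr2 was higher. Atp2a1 stood at 815, 654 and 596 CPM at 22 °C and at 353, 433 and 212 at 10 °C. The groups did not overlap, and the change was −0.88 ± 0.25 (edgeR adjusted p = 0.0566). Ryr1 went from 489, 390.2 and 329.7 CPM to 232, 181 and 115, again without overlap, a change of −1.03 ± 0.24 (edgeR adjusted p = 0.0254). Casq1 was at 218, 132 and 114 CPM at 22 °C and 90.2, 103 and 44.3 at 10 °C, also apart, with −0.78 ± 0.32 (edgeR adjusted p = 0.146). The call of Casq1 was lost without 10 °C replicate 1 (−0.83) or 3 (−0.49) and without 22 °C replicate 1 (−0.50). These 3 calls stand beside 7.24% of 12791 genes tested that were called lower in this tissue, and the 1 higher call beside 6%. By adjusted p, 5.07% of genes were lower and 6.22% higher, and of the members Ryr1 was lower and Ryr2 higher.

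Muscle markers moved with this trio. The summed level of the 12 fast muscle genes was 7363 to 11562 CPM at 22 °C and 2718 to 5315 at 10 °C, with 9 of 11 tested genes of the list called lower (median −0.87), and 4 of 7 slow muscle genes were called lower as well. Relative to the fast muscle sum, Atp2a1 was 7.83% ± 0.69 at 22 °C and 7.60% ± 0.88 at 10 °C (SD, n = 3). For Ryr1 the ratios were 4.56% ± 0.38 and 4.03% ± 0.46, and for Casq1 1.70% ± 0.17 and 1.77% ± 0.19. In bulk tissue, fewer cells of a type and less RNA per cell cannot be told apart, and the part that muscle transcripts have in these calls was not tested.

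**Figure D3:**
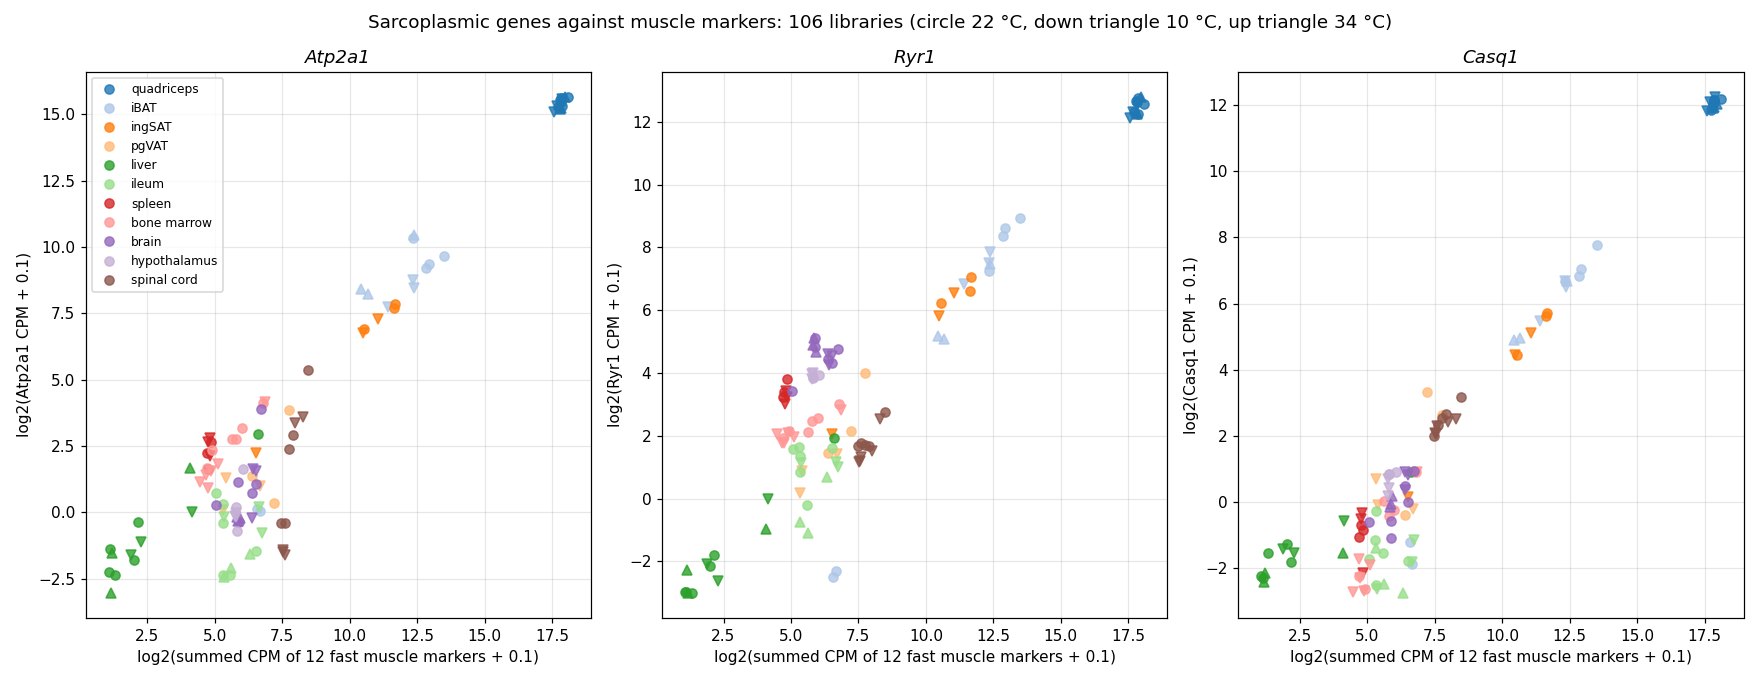
Level of Atp2a1, Ryr1 and Casq1 against the summed level of 12 fast muscle genes, both as log2(CPM + 0.1), in all 106 libraries (circles 22 °C, down triangles 10 °C, up triangles 34 °C, colour by tissue). Libraries of iBAT and ingSAT lie on the way between the other tissues and quadriceps, and those of iBAT at 10 °C lie lower on both axes than their 22 °C controls from the same table.

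Ryr2 in iBAT rose from 3.01, 2.66 and 6.03 CPM to 9.68, 5.62 and 12.5, where the lowest cold library lies below the highest control. The change was +1.35 ± 0.36 (edgeR adjusted p = 0.0438). It was called in each of the 6 fits that left out 1 library. As a share of ryanodine receptor transcripts per length it went from 0.781% to 4.32%. Most of that total was Ryr1, which was lower in the same cold libraries, so the share moves with both genes. Among markers of other cells that use Ryr2, 4 neuron genes summed to 0.172 to 0.344 CPM at 22 °C and to 0.489 to 1.04 at 10 °C, also higher and without overlap, and 8 cardiac genes summed to 6.70 to 20.3 and 4.61 to 20.9. Epididymis genes, from another tissue dissected in this study, were at 0 in the 3 control libraries and at 3.57, 3.11 and 35.2 CPM at 10 °C. Both pgVAT libraries rich in those genes at 10 °C, with 21747 and 22080 CPM of them, held Ryr2 at 5.12 and 2.56 CPM. The part of these cells in the level of Ryr2 was not tested.

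The other pumps and the regulators of iBAT passed no call at 10 °C. Atp2a2 was at 453, 430.1 and 713 CPM at 22 °C and 346, 411 and 323 at 10 °C, lower without overlap, with −0.41 ± 0.22 (edgeR adjusted p = 0.274). Casq2, at 11.8, 10.6 and 11.4 CPM in controls and 8.46, 7.14 and 5.03 in the cold, was also lower without overlap, but at −0.55 ± 0.19 (edgeR adjusted p = 0.0997) its fold stayed under the limit. It passed with scaling by library size alone, at −0.71 (adjusted p = 0.0463, and 0.0463 to 0.108 over the other settings), a scaling that moves the median of all genes in this tissue by −0.18. It was also called without 10 °C replicate 1 (−0.68, adjusted p = 0.0899) or 2 (−0.61, adjusted p = 0.135), where fits without 1 library gave adjusted p values of 0.0899 to 0.308. Sln, the pump inhibitor tied to heat production in muscle, went from 2.41, 1.85 and 2.28 CPM to 3.03, 0.549 and 0.182. The first cold library was above all controls and the other 2 below them, and the change of −0.59 (edgeR adjusted p = 0.612) became −2.34 (adjusted p = 0.0215) without it, against 0.268 to 0.6251 over the other settings. Pln (−0.05) and Atp2a3 (+0.05) showed no difference that passed the test, and Ryr3 was too low to be tested.

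**Figure D4:**
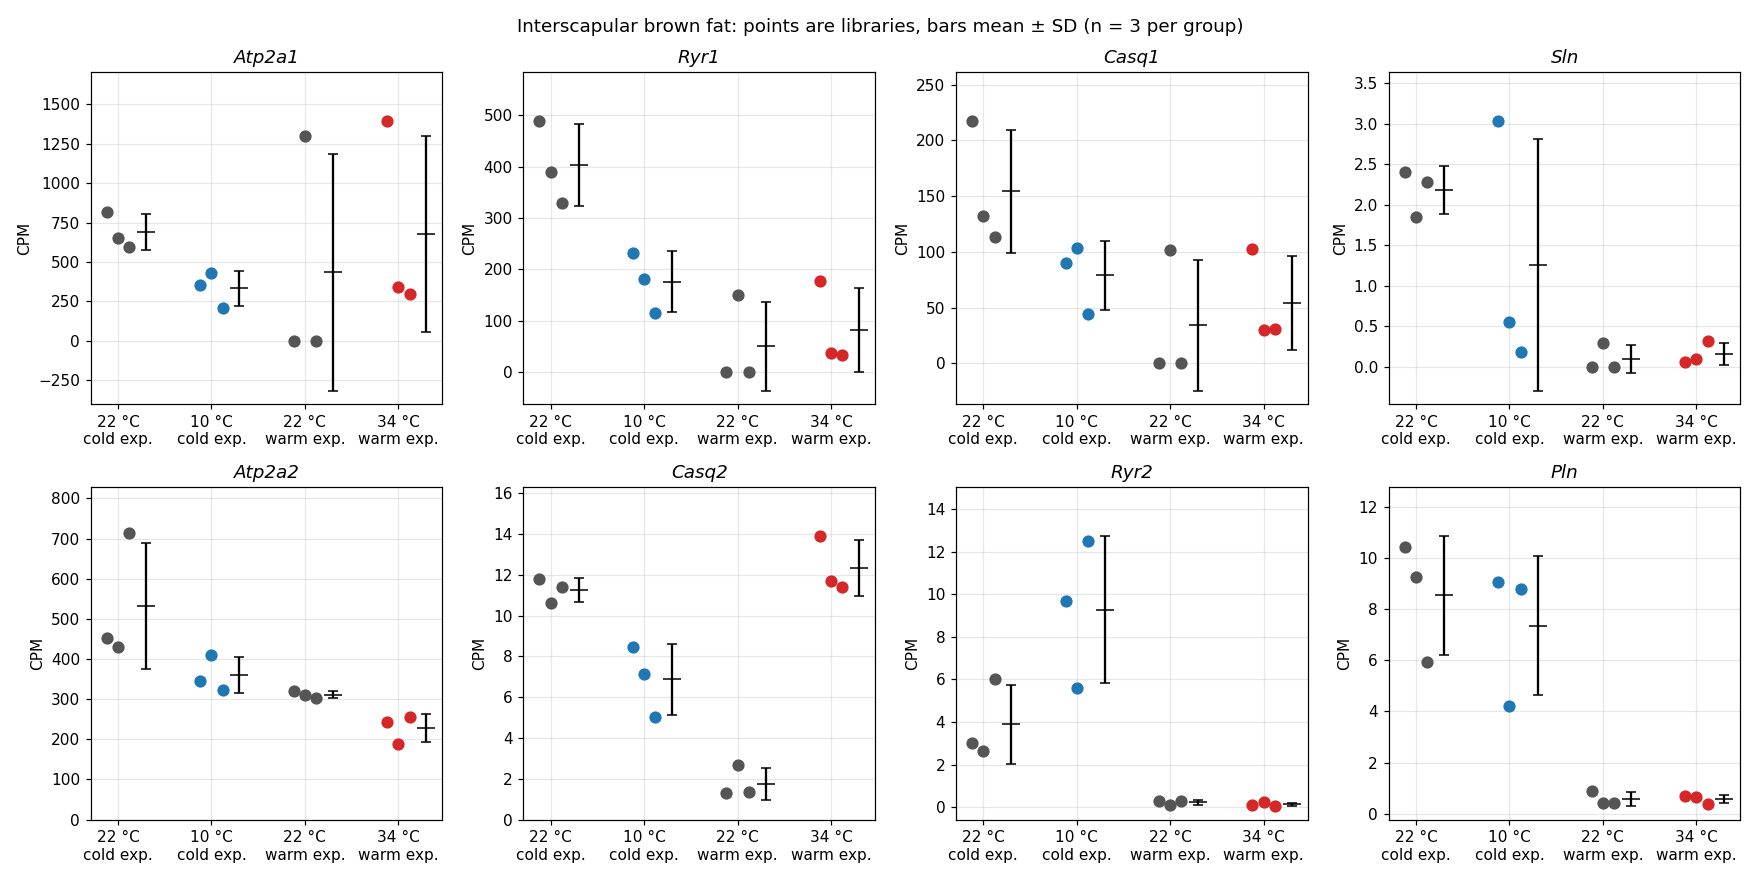
CPM of 8 of the genes in every iBAT library of the cold experiment (22 °C and 10 °C) and of the warm experiment (22 °C and 34 °C), with 1 point per library and bars for the mean ± SD. Cold libraries lie below their controls for Atp2a1, Ryr1, Casq1 and Casq2, and warm libraries lie above theirs for Casq2 and below theirs for Atp2a2.

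In ingSAT none of 9 tested genes was called at 10 °C by edgeR's quasi-likelihood test, its exact test or DESeq2, and none had an unadjusted p under 0.05, in a tissue where 16.3% of genes were called. Atp2a1 was at 205, 230.4 and 121 CPM at 22 °C and at 107, 4.66 and 155 at 10 °C. Ryr1 (97.3, 132 and 75.6 against 55.8, 4.05 and 92.7) and Casq1 (48.9, 52.6 and 21.8 against 21.7, 0.993 and 34.4) had the same low library, which holds 91.5 CPM of fast muscle genes. With it the changes were −1.05 ± 0.96, −0.99 ± 0.87 and −1.11 ± 0.94, and without it −0.46, −0.41 and −0.51. Calls appeared in 2 other fits without 1 library, of Pln without 22 °C replicate 3 (+0.87, adjusted p = 0.0257, against +0.50 with it) and of Ryr2 without 10 °C replicate 1 (+0.72, adjusted p = 0.182, against +0.54).

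In pgVAT, Ryr1 and Casq1 were called lower, where 3.47% of all genes were. Ryr1 was at 4.37, 2.63 and 15.95 CPM in controls and at 1.72, 2.58 and 1.04 at 10 °C (−1.95 ± 0.74). Casq1 was at 9.96, 0.657 and 6.10 against 0.836, 0.756 and 1.52 (−2.35 ± 0.88). Both had an edgeR adjusted p of 0.593, the Casq1 groups overlapped, and the calls rest on few libraries. Ryr1 lost its call without 10 °C replicate 1 (−1.86) or 3 (−1.67) and without 22 °C replicate 3 (−0.93), and Casq1 in every fit without 1 library (−2.72 to −1.55) except the one without 22 °C replicate 2. Fast muscle genes summed to 83.6 to 217 CPM in controls and 39.9 to 104 in the cold. The control with 15.95 CPM of Ryr1 also held 455 CPM of brown adipocyte genes, against 13.5 and 30.6 in the other controls and 21.3 to 36.4 in the cold, with 332 CPM of Ucp1 and 35.4 of Myh4. Its total of 4262403 counts was the lowest of all libraries, against 23789328 and 7607873 in the other controls. Epididymis genes were at 2654, 833 and 726 CPM in controls and at 21747, 2.46 and 22080 in the cold. The part of any of these tissues in the calls was not tested. Atp2a1 (−1.66, adjusted p = 0.6247), Ryr2 (−1.52) and Atp2a3 (−1.005, adjusted p = 0.593 for both) were not called by the quasi-likelihood test, while DESeq2 called Ryr2 (adjusted p = 0.386) and Atp2a3 (adjusted p = 0.421) lower as well, and the exact test Ryr2 (adjusted p = 0.559). Ryr3 ranged from 0.819 to 37.2 CPM over the 6 libraries.

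Quadriceps, the tissue with by far the most of the fast muscle forms, showed none of its 8 tested genes called at 10 °C by edgeR or DESeq2, and none had an unadjusted p under 0.05, beside 3.35% of all genes called. Atp2a1 ranged from 39976 to 51846 CPM in the 6 controls, with a median of 46243, and was at 40396, 34699 and 48266 at 10 °C. The change was −0.30 ± 0.30, beside −0.33 ± 0.23 for Ryr1 and −0.16 for Casq1. Atp2a2, the slow fibre pump, was at 237, 231, 235, 151, 88.9 and 233 CPM in controls and at 356, 306 and 245 in the cold, above all controls, with +0.44 ± 0.31 (edgeR adjusted p = 0.604). It was called with library size scaling (+0.63, edgeR adjusted p = 0.362), which moves the median of all genes by +0.16. Slow fibre markers ran alongside: their sum was 283 CPM in the control library with 88.9 of Atp2a2 and 1288 in the cold library with 356. The 6 controls carry 2 header prefixes, and the means of the 3 with prefix QM match the control means that the study used at 10 °C. Against those 3 alone the change of Atp2a2 was +0.13 ± 0.15, and those of Atp2a1 (−0.47 ± 0.38, edgeR adjusted p = 0.621), Ryr1 (−0.51 ± 0.25, edgeR adjusted p = 0.476) and Casq1 (−0.30 ± 0.24, edgeR adjusted p = 0.613) were not called either. Sln was at 0.893 to 2.70 CPM in controls and at 1.92, 2.68 and 0.841 at 10 °C, overlapping throughout (+0.19).

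**Figure D5:**
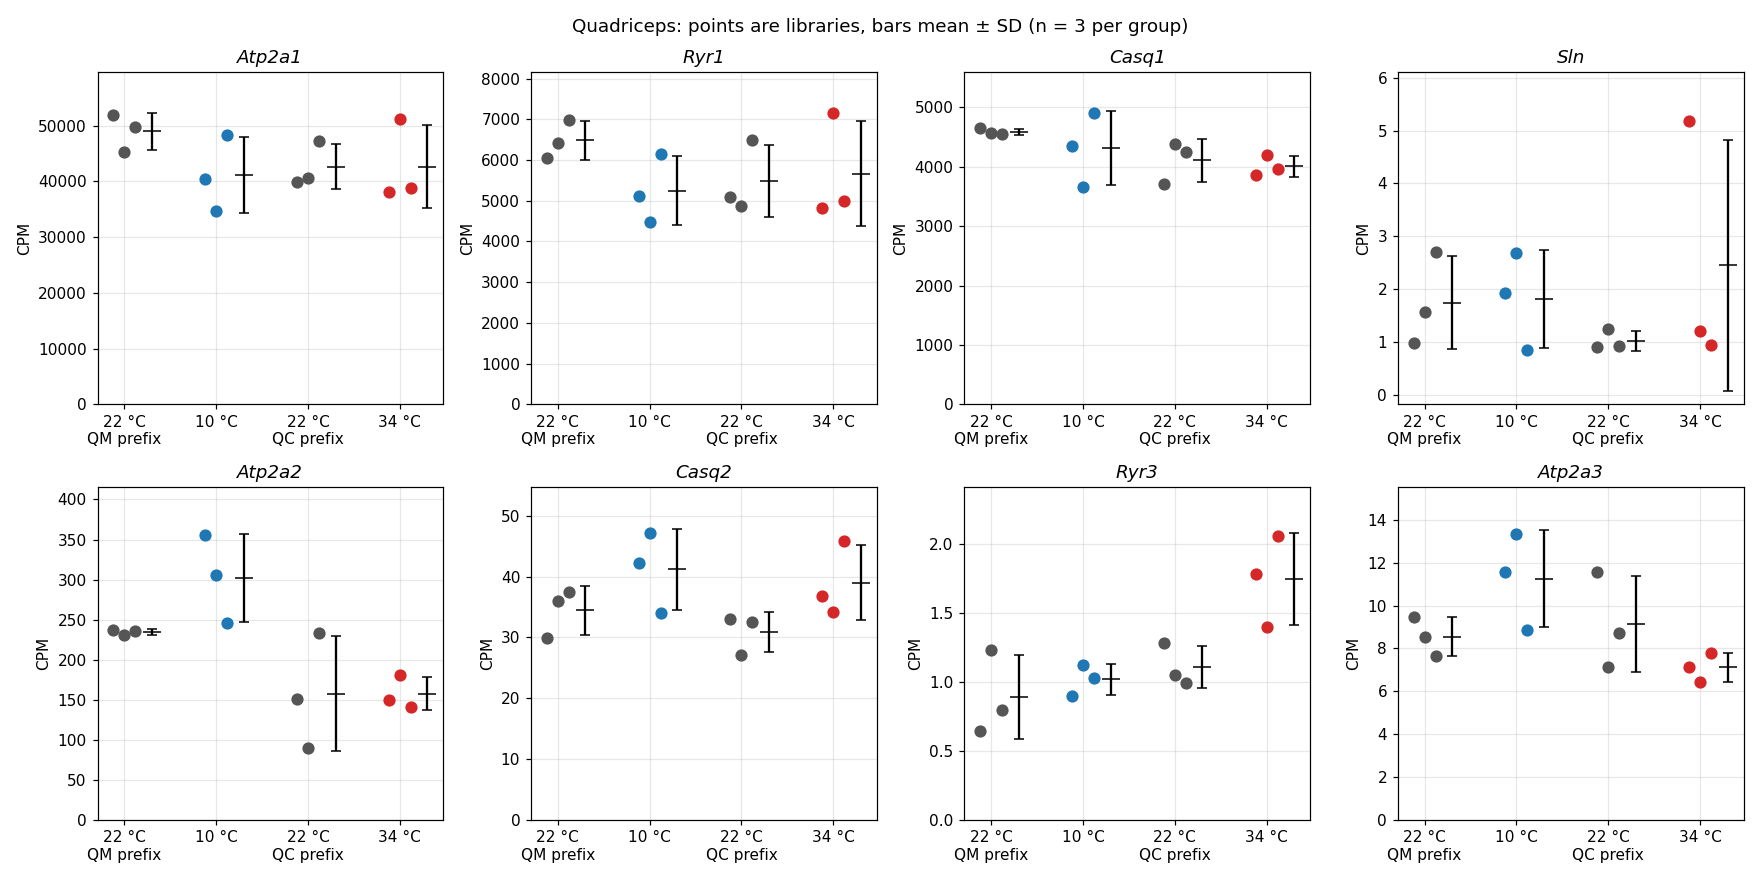
CPM of 8 of the genes in the quadriceps libraries at 10 °C (3), 22 °C (6) and 34 °C (3), with 1 point per library and bars for the mean ± SD of 3, the controls split by header prefix. Atp2a2 is above the 22 °C libraries at 10 °C, Ryr3 is above them at 34 °C, and the fast muscle genes overlap between temperatures.

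No member was called at 10 °C in the 7 other tissues by edgeR's quasi-likelihood test, where 3.28% of all genes were called in liver, 2.71% in ileum, 2.68% in spleen, 1.29% in bone marrow, 2.72% in brain, 0.578% in hypothalamus and 0.271% in spinal cord. DESeq2 called none there either, and the exact test called Atp2a1 in liver. An unadjusted p under 0.05 occurred for 1 gene each in ileum, bone marrow and spinal cord. Phospholamban in ileum was 1 of them: Pln was at 13.2, 10.2 and 10.5 CPM at 22 °C and 8.61, 7.69 and 7.44 at 10 °C, lower without overlap, with a fold under the limit (−0.46 ± 0.14, edgeR adjusted p = 0.192). Atp2a3 was also below its controls there, at 292, 289 and 263 CPM against 331, 325 and 305 (edgeR adjusted p = 0.377). In bone marrow Atp2a2 had a difference of +0.11 ± 0.04 (edgeR adjusted p = 0.0764), under the fold limit, and Atp2a3, the main pump there, was at 658 to 798 CPM against 628 to 718 in the cold. In spinal cord that of Atp2a3 was +0.22 ± 0.08 (edgeR adjusted p = 0.780).

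In tissues without skeletal muscle, Atp2a1 followed single libraries with muscle transcripts. Liver had 0.185, 0.675 and 7.74 CPM at 22 °C and 0.361, 0.8999 and 0.226 at 10 °C, and the library at 7.74 also held 28.7 CPM of Myh4, a fast myosin, and 79.4 of Ucp1. The change of −2.50 ± 1.13 (edgeR adjusted p = 0.277) was called by edgeR's exact test but not by DESeq2, and without that library the gene was too low to be tested. In spinal cord the controls had 5.15, 0.655, 0.648, 7.48 and 41.5 CPM of Atp2a1, the last with 36.03 of Myh4, and cold libraries had 0.224 to 11.9. Without it the change turned from −1.27 ± 1.19 to +0.41. In bone marrow 1 cold library stood at 17.8 CPM, with Myh4 at 26.1 against at most 2.52 in the others. The difference of Atp2a1 was −1.64 without that library (adjusted p = 0.00868) and −0.62 with it (edgeR adjusted p = 0.454, and 0.234 to 0.511 over the alternatives that keep it). The controls had 8.99, 3.08, 17.2, 6.62, 4.97 and 6.67 CPM of Atp2a1. Their Myh4 was at 8.37, 0.617, 17.1, 5.37, 0.118 and 6.41 CPM in the same order, and its part in either value was not tested.

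Spleen had a low level of Atp2a1 without such libraries. It was at 6.22, 4.65 and 3.005 CPM at 22 °C and 4.26, 6.79 and 6.15 at 10 °C, while Acta1 was at most 1.03 CPM, Ckm 0.648 and Myh4 0.0608. Atp2a1 shares 807 exon bases with Rabep2 on the opposite strand, and the part of Rabep2 reads in this level was not tested. Sln in spleen was at 0.293 to 0.453 CPM in controls and 0.496 to 0.973 in the cold, without overlap but at no more than 16 counts, too few to be tested. In hypothalamus Ryr2 and Ryr3 had changes within 0.1 of 0, and Sln went from 0 in the 3 controls to 0.0627 to 0.131 CPM in the cold, which is 1 or 2 counts per library.

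In brain 1 library set most of the spread. Atp2a2 was at 1034, 599 and 886 CPM at 22 °C and 1112, 1002 and 996 at 10 °C, and Ryr2 at 457, 206 and 441 against 493.2, 483 and 474. The low values of both, and 32.5 CPM of Ryr3, belong to the library with hepatocyte transcripts, which also has 6.16 CPM of Pln against 2.35 and 2.30. With it the changes were +0.19, +0.31 ± 0.19, +0.33 and, for Pln, −1.22 (edgeR adjusted p = 0.706). Without it they were +0.14, +0.13, +0.11 and −0.31.

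Warm housing moved 2 members in iBAT, in opposite directions. Casq2 was at 1.29, 2.67 and 1.33 CPM at 22 °C and at 13.9, 11.7 and 11.4 at 34 °C. The groups lie far apart, and the change was +2.52 ± 0.31 (edgeR adjusted p = 0.00269), where 12.2% of all genes were called higher. In the same order of libraries, fast muscle genes summed to 101, 5168 and 95.0 CPM at 22 °C and to 5348, 1385 and 1635 at 34 °C. Slow muscle genes summed to 2.37, 193 and 2.01 CPM and to 31.3, 46.4 and 54.9. In each group the library with the most fast muscle transcripts had the highest Casq2. Its slow muscle sum was the highest of its group at 22 °C (193) and the lowest at 34 °C (31.3). Between groups, the control with 5168 CPM of fast muscle genes had Casq2 at 2.67. Warm libraries with 1385 and 1635 had it at 11.7 and 11.4. Cardiac markers were at 4.47 to 7.20 CPM at 22 °C and 3.96 to 4.67 at 34 °C, and 1 of 6 smooth muscle genes was called higher, with sums of 84.3 to 127 and 124 to 178. Without the control library rich in muscle transcripts the change of Casq2 was +2.97 ± 0.20. The part of muscle in it was not tested further.

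Atp2a2, the housekeeping pump, was lower in iBAT at 34 °C, at 243, 189.5 and 255 CPM against 320.4, 309 and 303, without overlap. The change was −0.71 ± 0.12 (edgeR adjusted p = 0.00604), beside 7.19% of genes called lower. By adjusted p, 15.4% of genes were lower and 13.5% higher. With library size scaling, which moves the median of all genes by +0.30 in this comparison, it was −0.44 and below the fold limit (adjusted p = 0.0280). For the fast muscle trio the controls differed among themselves more than the groups did: Atp2a1 was at 0.948, 1301 and 1.005 CPM at 22 °C and at 1394, 344 and 298 at 34 °C. Ryr1 (0.102, 151 and 0.0754 against 177, 36.4 and 33.7) and Casq1 (0.169, 102 and 0.327 against 103, 29.6 and 30.8) showed the same library as high. With all libraries the changes were +0.30 ± 2.06, +0.37 ± 1.86 and +0.34 ± 1.66. Without that library, which was left out after its values were seen, they were +9.14 ± 0.94 (adjusted p = 0.00161), +9.54 (adjusted p = 0.00345) and +7.41 (adjusted p = 0.00196), along with fast muscle genes at 95.0 and 101 CPM in the remaining controls and 1385 to 5348 in the warm libraries. Skeletal muscle in the sample and expression in the fat itself cannot be told apart in these values.

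In quadriceps at 34 °C, Ryr3 was called higher, beside 0.409% of all genes. It was at 0.642 to 1.28 CPM in the 6 controls and at 1.78, 1.40 and 2.06 at 34 °C, above all of them, with +0.78 ± 0.22 (edgeR adjusted p = 0.716), and the call held in each of 9 fits without 1 library. Against the 3 controls with header prefix QC alone it was +0.70 ± 0.25, also called (edgeR adjusted p = 0.9999). Atp2a3 had a difference of −0.35 (edgeR adjusted p = 0.897), under the fold limit. Atp2a1 was at 38046, 51200 and 38753 CPM and was not called. The first and last of these lay below the lowest control (39976), and the other lay within the range of the controls. Sln was at 5.18, 1.21 and 0.945 CPM, high in 1 library only.

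In the remaining warm comparisons 1 call was made, that of Atp2a1 in brain (−2.95 ± 0.86, edgeR adjusted p = 0.9997), beside 0.15% of genes called lower. The controls were at 14.7, 0.674 and 2.12 CPM and the warm libraries at 0.706, 0.795 and 0.761. The first control also held 19.8 CPM of Myh4 and 12.4 of Acta1, and without it the change was −0.90 and no longer called. Atp2a2 (993, 1012 and 1117 CPM against 1005, 1022 and 975) and Ryr2 (259, 285 and 320.2 against 325, 315 and 275) overlapped in brain. None of 7 tested members was called in ileum by edgeR's quasi-likelihood test (0 with p under 0.05, 2.83% of all genes called), where Ryr1 had −1.36 (adjusted p = 0.594) and was called by DESeq2 and the exact test. In liver only Atp2a2 could be tested, and it was not called by any of these tests, beside 3.38% of all genes.

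A test of whether the temperature effect differed among tissues was run within each table that holds more than 1 tissue. At 10 °C, over the 8 tissues of 1 table, it was passed by Ryr2 (edgeR adjusted p = 0.0317), as by 16.1% of 15935 genes. Ryr2 was higher in iBAT (+1.35) and had −1.52 in pgVAT, which the quasi-likelihood test did not call and DESeq2 and the exact test did. It no longer passed in 6 of 48 fits without 1 library (adjusted p from 0.00371 to 0.0999), each without a library of iBAT or pgVAT, those of iBAT being 10 °C replicate 3 and 22 °C replicates 1 and 2, and those of pgVAT 10 °C replicate 3 and 22 °C replicates 1 and 3. At 34 °C it was passed by Casq2 (edgeR adjusted p = 0.00212), as by 11.7% of 14999 genes, with +2.52 in iBAT, +0.21 in quadriceps, +0.26 in ileum and −0.27 in brain, and it passed in 33 of 33 fits without 1 library.

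A list of 60 other genes of calcium handling holds none of the 10 members. At 10 °C, 34 of its 559 tested pairs with a tissue were called (7 higher and 27 lower), beside 4.94% of the pairs of all genes. At 34 °C, 11 of 238 were called (7 higher and 4 lower), beside 5.32%. In iBAT at 10 °C, 4 of 53 were called higher and 15 lower, or 35.8% in either direction beside 13.2% of all genes, with a median of −0.11 against −0.02 over all genes. The list holds muscle genes, such as Hrc and Jph1 below. In these libraries 9 of 11 tested fast muscle genes and 4 of 7 slow muscle genes were also called lower. The part of muscle transcripts in the calls of the list was not tested. Letm1, a proton and calcium exchanger of mitochondria, rose from 289 to 584 CPM (+1.18 ± 0.18, adjusted p = 0.00537) and, with opposite sign, fell from 392 to 186 CPM in iBAT at 34 °C (−1.34 ± 0.12, adjusted p = 0.00107). Hrc, a calcium-binding protein of the muscle store, went from 33.1 to 15.2 CPM in the cold (−0.96 ± 0.20, adjusted p = 0.0186), and Jph1, which ties the store to the surface membrane in muscle, changed by −0.96 (adjusted p = 0.0363). Orai2, a calcium entry channel, was higher (+1.67, adjusted p = 0.0259).

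In ingSAT 2 of 55 genes of this list were called higher and 5 lower, or 12.7%, beside 16.3% of all genes. Letm1 was again higher (+1.04, adjusted p = 0.0348), and Atp2b4, a pump of the plasma membrane, fell from 308 to 112 CPM (−1.46, adjusted p = 0.0181). Of the other tissues at 10 °C, pgVAT had 1 of 51 higher and 2 lower (5.88%, beside 7.94% of all genes), ileum 2 of 52 lower (3.85%, beside 2.71%), liver 1 of 39 (2.56%, beside 3.28%), spleen 1 of 50 (2%, beside 2.68%) and bone marrow 1 of 44 (2.27%, beside 1.29%), so that these shares lay near those of all genes. The 1 in bone marrow was Mcub, a subunit of the mitochondrial uniporter (−0.59, adjusted p = 0.00383). By adjusted p alone, with no limit on the fold, 13 genes of the list were lower in bone marrow and 0 higher, beside 1459 of all 12525 genes tested that were lower. Quadriceps, brain, hypothalamus and spinal cord had 0 calls in the list by edgeR's quasi-likelihood and exact tests, with 7, 0, 2 and 3 genes at an unadjusted p under 0.05 in the former, and DESeq2 called 1, in brain. At 34 °C the list had 4 of 49 higher and 2 lower in iBAT (12.2%, beside 19.4% of all genes) and 3 of 34 higher and 2 lower in liver (14.7%, beside 3.38%), where Letm1 was lower (−0.61, adjusted p = 0.0305). The 3 higher in liver were Jph1, Itpr3 and Cacna1d, with means of at most 2.10 CPM at 34 °C (edgeR adjusted p of 0.154 to 0.426). Of the genes called in liver, Letm1 alone passed after adjustment.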

How the data were processed

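Bulk RNA was sequenced in 106 libraries of 11 mouse tissues. The authors aligned reads to mm10 with STAR and counted them per gene with HTSeq, whose versions differ between their methods and the submitters' processing notes, and deposited raw counts in 4 tables, used here unscaled. Identifiers of the table of 8 tissues were matched to symbols with the GENCODE annotation of GRCm38, the same assembly as mm10 (21583 of 21647 matched). Levels are CPM of the library total. One fit per comparison was made in edgeR 4.0.16 under R 4.3.3 from the libraries of its groups (TMM, average log2 CPM above 0, quasi-likelihood F-test, two-sided, prior count of 2), and the SE is the log2 fold change over the square root of F. The study's own comparison used edgeR's exact test, tried here as an alternative beside DESeq2 1.42.0, other filters and scalings, a replicate block and leaving out each library. Interaction tests used all libraries of a table. No p was adjusted across comparisons.

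The labels name 34 °C in the treatment protocol of every sample, so temperatures were taken from the sample titles. No pair of libraries had identical counts. Libraries are labelled as separate samples, and p-values measure the spread between them. The labels do not say which mice gave which tissue, so libraries of different tissues may share mice. The interaction tests treat such libraries as independent. Reads carry no molecular identifiers, so the precision that totals give covers counting error only. The members and gene lists were chosen with earlier results of these data known, and the muscle, slow muscle, cardiac, smooth muscle, neuron, epididymis, hepatocyte and other marker lists serve only to describe libraries. Named genes were all 10 members, and from the list of calcium handling up to 3 called per direction and comparison with the smallest p, of which the text gives some, and for each member the 3 genes most like it, of which some are not reported here. Tests were checked on simulated counts. Promoter windows come from RefSeq on GRCm38.p6. Proteins were not used here.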

Additional observations from a re-analysis of the deposited data

Results flagged for a closer look

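Of 50 groups of 4 to 10 libraries with a member's level, 12 held a library far from the others by Dixon's ratio. The limit would flag about 1 in 20 if values were independent and normally distributed. The same libraries recur for several members, and the flag of Sln in bone marrow rests on a single count. That rate is therefore not a fair comparison here. In bone marrow at 10 °C the same library, replicate 4, stood above the others for Atp2a1 (17.8 CPM), Ryr1 (6.91) and Casq1 (1.76). It is also the library with 26.1 CPM of Myh4, 21.4 of Acta1 and 11.7 of Ckm. In spinal cord at 22 °C 1 library stood out for Atp2a1 (41.5 CPM) and Ryr1 (6.65), with 36.03 CPM of Myh4. The part of muscle transcripts in these values was not tested.

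Other single libraries stood out at low levels or by small steps. They were Ryr1 in spinal cord at 10 °C (5.74 CPM), Atp2a3 in spinal cord at 22 °C (11.2 CPM), Ryr2 in quadriceps at 22 °C (0.214 CPM), Sln in quadriceps at 22 °C (2.70 CPM), Casq2 in bone marrow at 22 °C (0.668 CPM), Pln in bone marrow at 10 °C (0.868 CPM, the lowest of its group) and Sln in bone marrow at 10 °C (0.0452 CPM, a single count).

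The effect of temperature differed among tissues for Ryr2 at 10 °C (edgeR interaction test, adjusted p = 0.0317), which was higher in iBAT in the cold (+1.35) and had −1.52 in pgVAT, called by DESeq2 and the exact test and not by the quasi-likelihood test. It no longer passed in 6 of 48 fits without 1 library (adjusted p from 0.00371 to 0.0999). It differed for Casq2 at 34 °C (adjusted p = 0.00212), which was higher in iBAT (+2.52) in 3 of 3 libraries.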

How the results depend on the processing

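Over 115 pairs of member and comparison and 1517 alternative fits, 1463 kept their side of the limits, 16 lost a call, 38 gained one and 0 changed sign with a call; uncalled values could change sign, as that of Atp2a1 in spinal cord did. The 6 member calls at 10 °C became 10 with library size scaling and 2 by adjusted p, and 4 to 8 without 1 library. The 4 at 34 °C became 2 by adjusted p and 3 to 7 without 1 library, the 7 without the warm iBAT control rich in muscle transcripts. Atp2a1, lower in 1 tissue at 10 °C, was lower in 2 with library size scaling, the exact test and no filter beyond 1 count, and in 0 by adjusted p. Without 1 library it was 1 to 2, the 2 occurring without pgVAT 22 °C replicate 1, liver 22 °C replicate 1 or 2, bone marrow 10 °C replicate 4 or hypothalamus 22 °C replicate 3. Of the calcium handling list, 34 calls at 10 °C ran from 30 to 43 without 1 library, and 11 at 34 °C from 7 (without warm liver at 22 °C replicate 3) to 26 (without that iBAT control), with 24 when all 7 libraries that stand apart were left out, a choice made after seeing the data. The cause of these shifts was not tested.

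The interaction at 10 °C was passed by 0 to 1 members without 1 library: Ryr2 lost it in 6 of 48 fits, those without iBAT 10 °C replicate 3, iBAT 22 °C replicate 1 or 2, pgVAT 10 °C replicate 3, or pgVAT 22 °C replicate 1 or 3 (largest adjusted p 0.0999). That at 34 °C was passed by 1 to 4 members, by 2 in DESeq2 (with Atp2a1, adjusted p = 0.0400), and by 4 without the 7 libraries that stand apart (Atp2a1, Ryr1, Casq1 and Casq2).

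In iBAT at 10 °C, Atp2a1 (−1.16 to −0.62), Ryr1 (−1.23 to −0.79) and Ryr2 (+1.09 to +1.88) kept their calls in 6 of 6 fits without 1 library. In iBAT at 34 °C so did Casq2 (+2.33 to +2.97) and Atp2a2 (−0.83 to −0.64). Replicate numbers are shared between temperatures in the cold experiment. In no tissue did the libraries of every shared number deviate together from their group means. With 3 libraries per group in most tissues this check cannot exclude pairing. The main fits leave the numbers out. With the replicate block 4 members were called at 10 °C, Ryr1 (−1.67) and Casq1 (−1.86) in pgVAT losing their calls (adjusted p = 0.792 for both), Atp2a1 was lower in 1 tissue, the calcium list had 37 calls, and the interaction of Ryr2 had an adjusted p of 0.0359. Quadriceps and 34 °C columns carry no usable numbers. Sln had at most 16 counts in any library of liver, ileum, spleen or bone marrow.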
